A study of Zea mays with 16 samples.

Results

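A set of 39 transcripts, each measured by 1 named array probe, was described whose mean ratio of stressed over well watered kernels lay below 0 on the log2 scale in both drought-tolerant maize lines and above 0 in both susceptible lines. The 39 were taken from 1000 probes, each spotted in duplicate on every array to stand for 1 gene. Intensities less the local background, set to at least 50, were put on a log2 scale, and the ratio of stress to well watered was centred on the median of each array. Probes were ranked by their mean well watered value over the 16 arrays, and the 100 brightest and those past rank 800 were left out, so that 39 of 700 probes in this window (5.57%) had the sign pattern. The signs of the 4 line means chose the members, so the ratios are given below as a description and carry no test. The mirror pattern, above 0 in the tolerant and below 0 in the susceptible lines, was held by 37 probes, and the 16 possible sign patterns held between 17 and 105 probes each.

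At 10 days after pollination a maize kernel is leaving early development, in which the endosperm divides and expands, and is entering grain filling, in which it stores starch and protein. Drought around flowering is known to limit kernel set and early kernel growth, in part through a smaller supply of sugar to the young kernel, and lines differ in how well they keep kernels under drought. Recombinant inbred lines descend from a cross by repeated selfing, and each is therefore 1 fixed genotype. On a 2-colour array, RNA of the 2 treatments carries different dyes and competes for the same spots, and each spot gives a ratio within 1 line.

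The tolerant lines were RIL60 and RIL78 and the susceptible lines RIL66 and RIL68, with 4 arrays per line. On each array, poly(A) RNA of kernels from water-stressed plants was set against that of well watered plants of the same line, with stress in Cy5 on 2 arrays of a line and in Cy3 on the other 2. Stressed plants were kept near 16% soil moisture from 3 weeks before flowering, and well watered plants near 30%, in 2 field blocks per treatment. Kernels were taken 10 days after pollination, and 6 to 9 kernels of 3 ears were pooled for an extraction. The design text calls the 4 arrays hybridisation replicates, without saying whether their RNA was extracted separately. Except for class differences fitted to the line means, p-values therefore measure only the spread between arrays, which may be technical. In the fits to the line means, p-values measure the spread between lines of the same class. With 2 lines per class, a difference between classes cannot be told apart from differences between 4 genotypes. Fewer cells of a type and less RNA per cell also cannot be told apart in a whole kernel. The files name probes by ID only and none of the 1000 IDs was found among the 49888 genes of the reference table used here, so no gene, tissue marker or function is given for any probe.

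The share of an array's probe spots that exceeded the local background by 2 of its SDs in at least 1 channel ran from 30.3% to 76.3%. No day of scanning held arrays of both classes, so class and scan day cannot be told apart. RIL60 and RIL78 shared 1 day, with 3 and 4 arrays, and RIL66 and RIL68 shared another, with 1 and 3 arrays.

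The ratios of the members were small. The median ratio over the 39 probes was -0.05 in RIL60 and -0.08 in RIL78, against 0.16 in RIL66 and 0.05 in RIL68, while the median SD over the 4 arrays of a line was 0.18, 0.18, 0.19 and 0.16 in the same order. In 34 of the 39 probes at least 1 line mean was under 0.05 in size, and only a116pe0925 reached 0.1 in all 4 lines. The line mean was larger than the SD of its own arrays for 7 members in RIL60 and 8 in RIL78, and for 14 in RIL66 and 6 in RIL68. Of the 700 probes in the window this held for 111, 186, 372 and 86 in the same order. The mean of the tolerant lines minus the mean of the susceptible lines ran from -1.41 to -0.07 with a median of -0.22, against a median of 0.02 over the window.

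**Figure D1:**
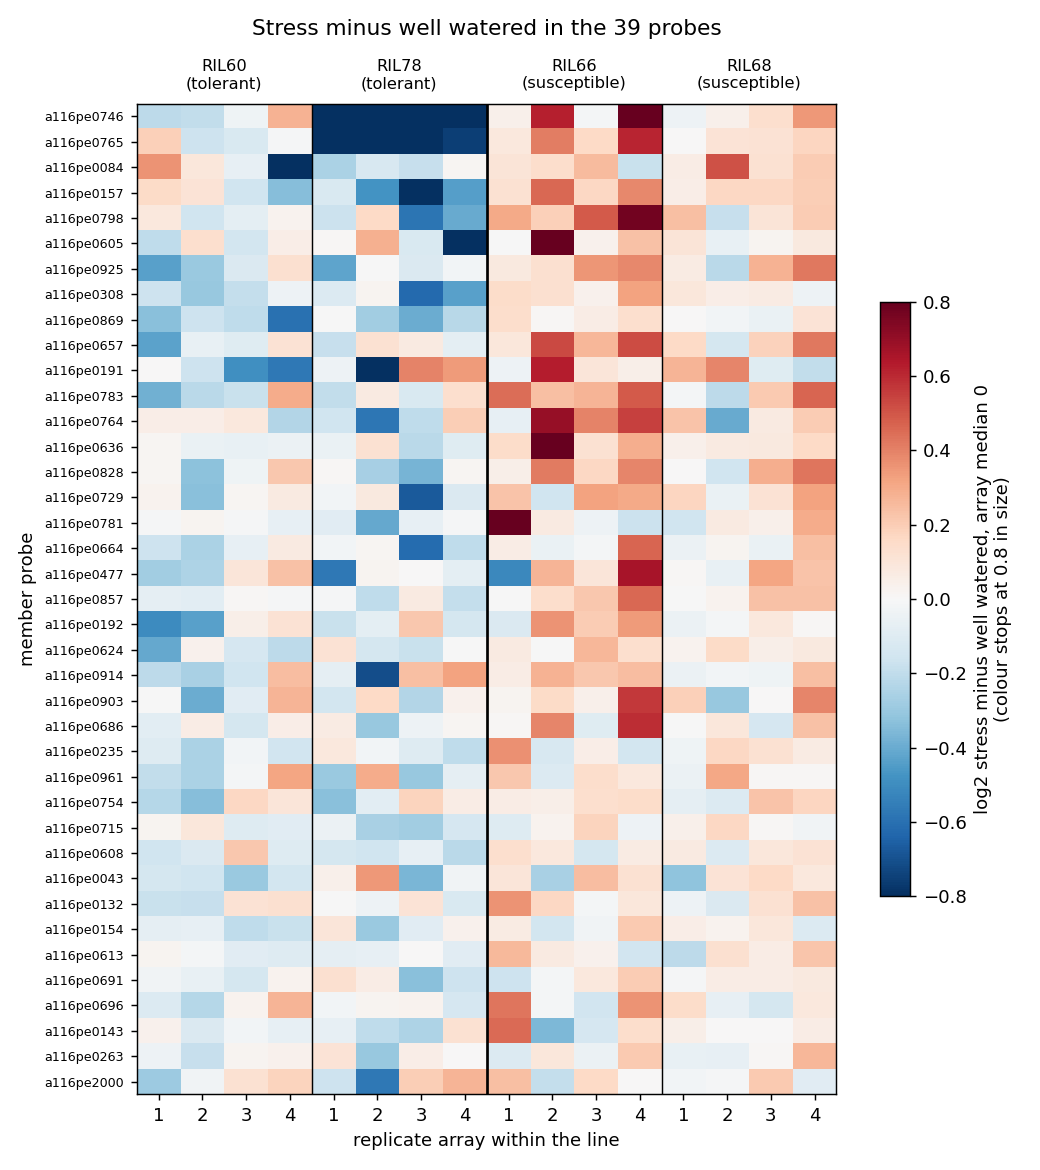
Ratio of stress to well watered (log2, array median 0) for each of the 39 probes (rows, ordered by tolerant minus susceptible) on each of the 16 arrays (columns, grouped by line). Blue cells are below 0 and red cells above 0; the darkest block is that of a116pe0746 and a116pe0765 in RIL78, and most other rows hold cells of both colours within a line.

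Single arrays often went against the sign of their line. The number of arrays with the chosen sign ran from 7 to 15 of 16 with a median of 12, and no member had it on all 16. It was 15 of 16 for a116pe0765 and 14 for a116pe0157, a116pe0308, a116pe0636, a116pe0869 and a116pe0925. All 8 tolerant arrays lay below all 8 susceptible arrays for 0 of the 39 members and for 0 of all 1000 probes (0%). When the 4 line means were taken from the arrays of 1 dye orientation alone, 12 members kept all 4 signs with stress in Cy5 and 16 with stress in Cy3, and 6 kept them in both. Those 6 were a116pe0624, a116pe0308, a116pe0857, a116pe0798, a116pe0686 and a116pe0143, of which a116pe0857 and a116pe0143 are named here only for this count, after their values were seen. The same arrays chose the members, so these counts are a description and no check of the pattern.

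The largest line means belonged to a116pe0746 and a116pe0765 in RIL78. Probe a116pe0746 had ratios of -0.92, -3.26, -3.57 and -1.17 in RIL78 and of -0.21, -0.20, -0.03 and 0.28 in RIL60. Its ratios were 0.04, 0.62, -0.01 and 1.03 in RIL66 and -0.04, 0.04, 0.14 and 0.35 in RIL68. Every RIL78 array thus lay below every array of the other lines, whereas RIL60, the other tolerant line, overlapped both susceptible lines. Probe a116pe0765 had ratios of -0.90, -1.74, -2.21 and -0.76 in RIL78 and of 0.19, -0.16, -0.12 and -0.01 in RIL60, against 0.08, 0.41, 0.16 and 0.61 in RIL66 and 0.01, 0.11, 0.12 and 0.17 in RIL68. RIL78 again stood apart from the other 3 lines, and RIL60 overlapped both susceptible lines. The mean ratio in RIL60 was only -0.04 ± 0.23 for a116pe0746 and -0.03 ± 0.16 for a116pe0765 (SD, n = 4 arrays).

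**Figure D2:**
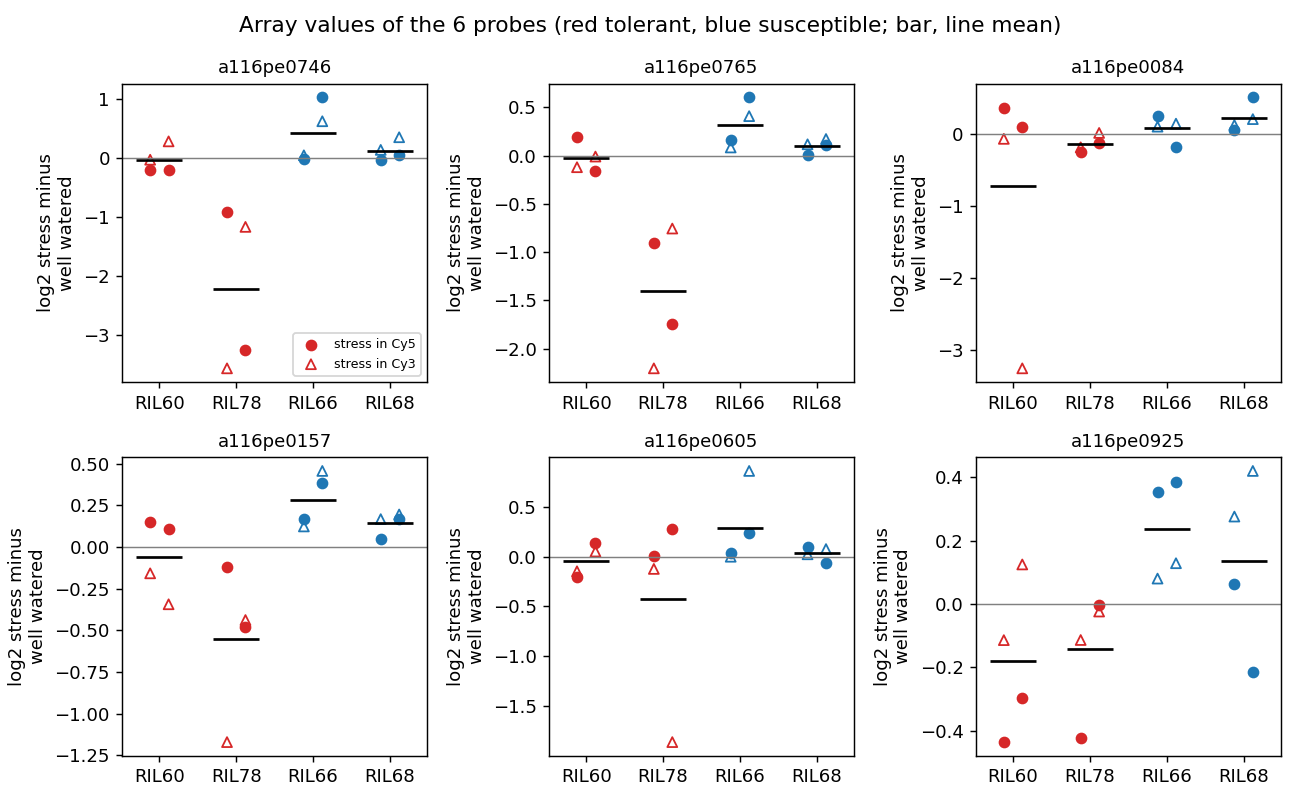
Ratio of stress to well watered (log2, array median 0) on every array of 6 probes, by line, with tolerant lines in red, susceptible lines in blue, filled circles for stress in Cy5, open triangles for stress in Cy3 and a bar at the line mean. Probes a116pe0746 and a116pe0765 are low in RIL78 alone, 1 array sets the RIL60 mean of a116pe0084, and 1 array sets the RIL78 mean of a116pe0605.

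In these probes the well watered level of RIL78 stood out. Its stress level lay near those of the other lines. Stress signals were often not above background, so they cannot show that the lines were alike under stress. Levels are log2 intensities per channel after normexp correction, loess and scaling of the average intensity between arrays. In RIL78, a116pe0746 had stress levels of 9.05, 8.42, 7.63 and 8.86 and well watered levels of 11.16, 12.37, 11.75 and 11.10. Its stress level averaged 8.49 ± 0.63 in RIL78, near the 8.97 ± 0.52 of RIL60, the 8.67 ± 0.29 of RIL66 and the 8.99 ± 0.44 of RIL68. Its well watered level averaged 11.59 ± 0.60 in RIL78, against 9.14 ± 0.73 in RIL60, 8.33 ± 0.41 in RIL66 and 8.82 ± 0.52 in RIL68 (SD, n = 4 arrays each). On the RIL78 arrays its stress signal exceeded background on 1 of 4 and its well watered signal on 4 of 4. In RIL66 its stress signal exceeded background on 0 of 4 arrays and its well watered signal on 1 of 4. In RIL68 neither channel was above background on any array, so no fold is given there.

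Probe a116pe0765 had the same shape, with a stress level of 9.17 ± 0.57 and a well watered level of 11.12 ± 0.42 in RIL78. In the other lines its mean stress level lay between 9.15 and 9.54 and its mean well watered level between 9.08 and 9.22. Probe a116pe0157 had a smaller gap, at 9.11 ± 0.43 under stress and 9.96 ± 0.23 well watered in RIL78. Unlike the other 2 probes, it was highest in RIL78 well watered and, by less, also under stress. Its mean levels in the other lines ran from 8.56 to 9.01 under stress and from 8.62 to 8.75 well watered. Over the 16 arrays the ratios of a116pe0746 and a116pe0765 had a Pearson correlation of 0.98 (Spearman 0.79), and 0.83 over the 12 arrays without RIL78. Both probes share every array and the pair was chosen for its size, so these correlations are a description. Among all 39 members the highest mean well watered level was that of RIL60 for 9 probes, RIL78 for 21, RIL66 for 3 and RIL68 for 6. Over the 700 probes of the window the counts were 182, 205, 138 and 175. The rule itself favours high well watered levels in the tolerant lines, so nothing is read from these counts.

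**Figure D3:**
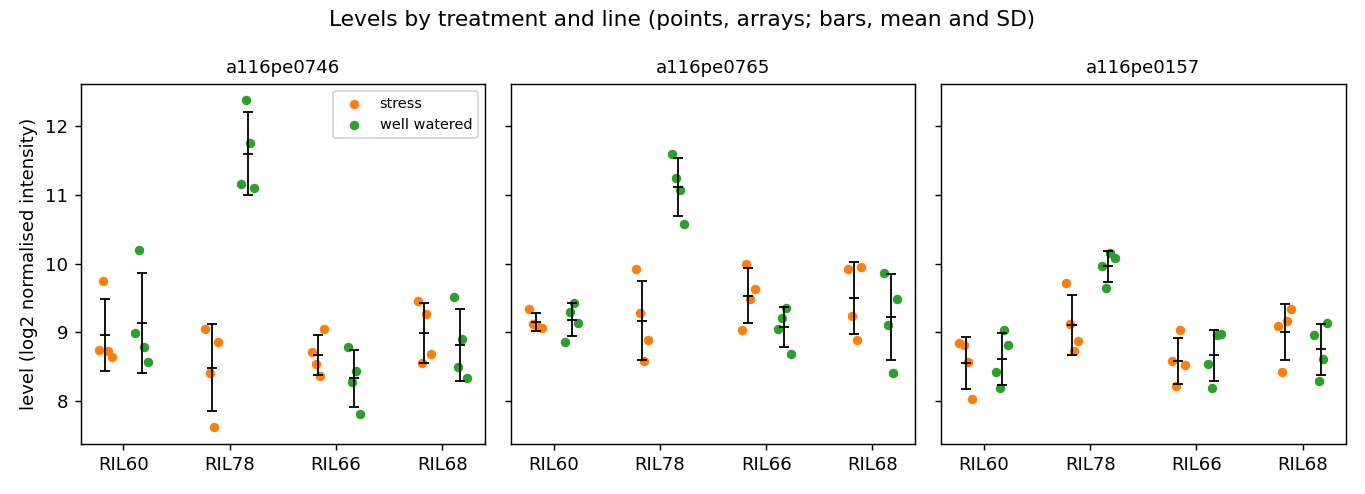
Level (log2 normalised intensity) of a116pe0746, a116pe0765 and a116pe0157 in each line, stress in orange to the left of well watered in green; points are arrays and bars the mean and SD of 4 arrays. The well watered points of RIL78 lie above those of the other lines. Its stress points lie nearer to theirs, though the lowest of a116pe0746 lies below all of theirs.

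Among the other probes with a wide gap between the classes, 2 owed a line mean to 1 array. Probe a116pe0084 had ratios of 0.36, 0.09, -0.07 and -3.25 in RIL60, so that its mean was -0.72 with the fourth array and 0.13 without it. On that array the local stress background of 1 of its spots was 3865, against an array median of 442, and the stress intensity of that spot was 2109, below its background. The other spot gave a ratio of -3.09. Probe a116pe0605 had ratios of 0.01, 0.28, -0.12 and -1.86 in RIL78, with a mean of -0.42 with the fourth array and 0.06 without it. The local stress background of 1 spot there was 1793 against an array median of 644, and the other spot of the probe on the same array gave -0.09. Without these arrays both probes would lie outside the sign pattern.

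Probe a116pe0157 had ratios of 0.15, 0.11, -0.16 and -0.34 in RIL60 and -0.12, -0.48, -1.17 and -0.44 in RIL78. Its ratios were 0.12, 0.46, 0.17 and 0.38 in RIL66 and 0.05, 0.17, 0.17 and 0.20 in RIL68. All 4 RIL78 arrays were below 0 and all 8 susceptible arrays above it, while 2 RIL60 arrays fell among the susceptible ones. After loess its RIL66 mean had the opposite sign, at -0.08. The stress signal of a116pe0157 exceeded background on 0 of 4 RIL66 arrays, and its well watered signal on 0 of 4 RIL60 arrays. Probe a116pe0925 was the most even over the lines, at -0.18 ± 0.24 in RIL60 and -0.14 ± 0.19 in RIL78, against 0.24 ± 0.15 in RIL66 and 0.14 ± 0.28 in RIL68 (SD, n = 4 arrays each). Its arrays ran from -0.44 to 0.12 in RIL60 and from -0.42 to 0.00 in RIL78, against 0.08 to 0.39 in RIL66 and -0.22 to 0.42 in RIL68. Its signal was weak throughout. Its stress signal exceeded background on 1 of 16 arrays and its well watered signal on 7 of 16, and in RIL68 neither did so on any array.

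Probe a116pe0308 had means of -0.18 ± 0.11 in RIL60 and -0.29 ± 0.30 in RIL78, against 0.16 ± 0.12 in RIL66 and 0.04 ± 0.06 in RIL68. Probe a116pe0869 stood at -0.33 ± 0.20, -0.22 ± 0.17, 0.09 ± 0.06 and 0.01 ± 0.07 in the same order, so that its difference lay mainly in the tolerant lines. Loess turned both susceptible means of these 2 probes below 0, at -0.22 in RIL66 and -0.05 in RIL68 for a116pe0308 and at -0.19 and -0.05 for a116pe0869. Probe a116pe0636 was the reverse, at -0.03 ± 0.03 in RIL60 and -0.06 ± 0.14 in RIL78 but 0.40 ± 0.43 in RIL66, where 1 array reached 1.04, and 0.09 ± 0.05 in RIL68. The highest RIL66 mean was that of a116pe0798, 0.44 ± 0.25, with -0.03 ± 0.11 in RIL60, -0.25 ± 0.32 in RIL78 and 0.09 ± 0.19 in RIL68. However, its stress signal exceeded background on 0 of 4 arrays in RIL66 and on 0 of 4 in RIL68.

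Other named members had a line mean close to 0. Probes a116pe0729, a116pe0624, a116pe0477, a116pe0903, a116pe0754 and a116pe0613 were named for a smallest line mean that was large for the set, yet that value rounded to 0.05 in size for each of them. Just inside the rule, a116pe0043 had a RIL78 mean of -0.003 and a RIL68 mean of 0.006, a116pe2000 a RIL60 mean of -0.006 and a116pe0192 a RIL68 mean of 0.006. Just outside it, a116pe0407 missed with 0.0006 in RIL60, a116pe0033 with -0.001 in RIL66 and a116pe0181 with 0.002 in RIL60. The brightest member was a116pe0191 at rank 259 and the dimmest a116pe0903 at rank 795, with a116pe0200 at rank 812 the next dimmer probe of the same signs.

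The members were dim among the probes of the window. Their median well watered value was 10.04 on the log2 scale against 10.34 in the window, and 3 of the 39 lay among the brighter 350 of the 700 probes. The median member exceeded background under stress on 5 of 16 arrays and well watered on 8 of 16, while the median probe of the window did so on 9 and 11. In RIL66, where the ratios of the members were highest, 11.5% of the stress values of the members were above background against 59.0% of the well watered values. Over the window these shares were 38.3% and 70.8% in that line. For 25 members no array of that line had a stress signal above background. The local background of RIL66 had a higher array median in the stress channel than in the well watered channel on 4 of 4 arrays, at 845, 644, 733 and 920 under stress and 232, 256, 477 and 366 well watered. In the other lines the stress channel had the higher background on 6 of 12 arrays. The part of background and dimness in the ratios was not tested.

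The sign of a ratio went with brightness. In RIL66 the median ratio was 0.15 over the dimmer 350 probes of the window and -0.35 over the brighter 350, with 275 dimmer and 32 brighter probes above 0. In RIL68 the same medians were 0.03 and -0.07. In RIL60 they were -0.02 and 0.04, and in RIL78 0.04 and -0.13. After normexp and loess, which removes a trend of the ratio with intensity on each array, the RIL66 medians were 0.02 and -0.05. With those ratios, and the ranks kept, 43 probes had the sign pattern and 16 of them were among the 39. The authors' deposited log2 ratios gave 36 probes, of which 16 were also among the 39, and 12 members had the signs in both. Among these 12 were a116pe0925, a116pe0746, a116pe0754, a116pe0636 and a116pe0657. Among the members that lost a sign were a116pe0157, a116pe0308 and a116pe0869, as given above, a116pe0084 with a RIL66 mean of -0.21 after loess, and a116pe0765 with a RIL60 mean of 0.0005 in the authors' deposited table.

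**Figure D4:**
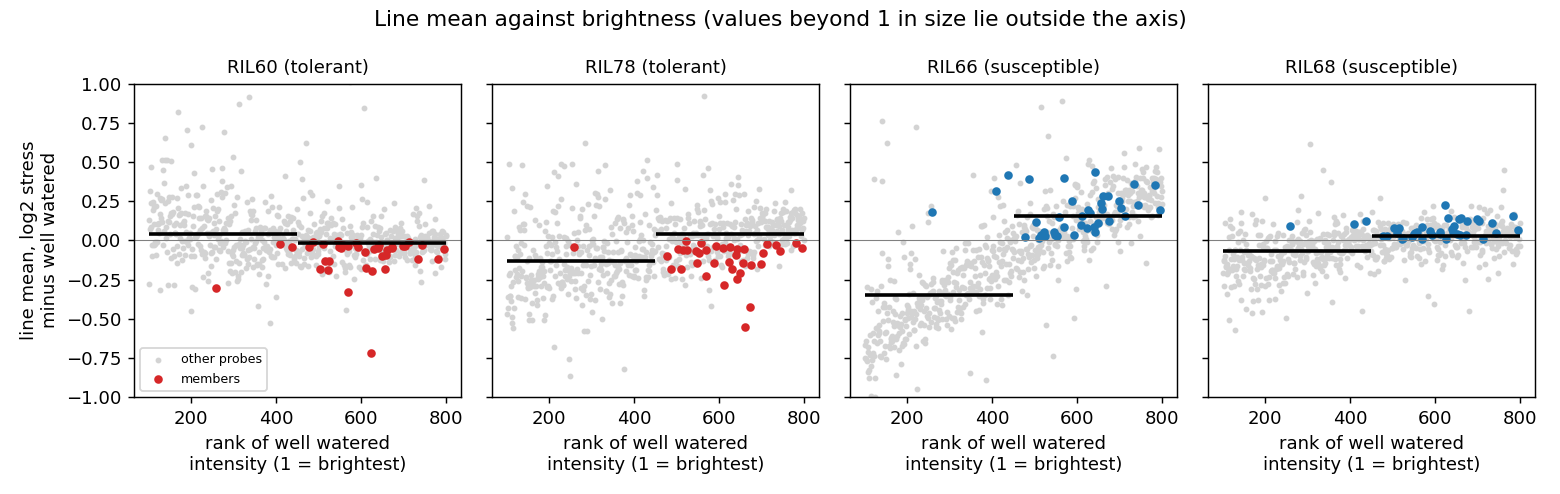
Line mean of the ratio of stress to well watered (log2) against the rank of the well watered intensity for the 700 probes of the window, 1 panel per line, members in colour, other probes in grey, black bars at the medians of the brighter and the dimmer 350 probes. In RIL66 the grey cloud climbs with rank through 0, and 36 of the 39 members lie among the dimmer 350.

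The rule used the contrast of stress with well watered, so counts of limma's calls on the loess ratios (adjusted p under 0.05 over all 1000 probes) are no test of the members, and nothing is read from them. In the direction of the rule, 1 member was called in RIL60 (a116pe0869), where 0.7% of all probes were called lower. In RIL78 4 members were called, a116pe0746, a116pe0765, a116pe0157 and a116pe0664, where 3.3% of all probes were called lower. The last of these falls outside the rule for named probes and was added after its values were seen. In RIL66 1 member was called (a116pe0636), with 2.4% of all probes called higher, and in RIL68 0 of 39, with 0.2% called higher. For tolerant minus susceptible, on 1 mean per line, 0 members and 0 of all probes were called lower in the tolerant lines (0%).

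The average level of a probe over both treatments was compared between lines, a measure that the rule did not use directly. It is the mean of the stress and well watered channels that form the ratio, and the well watered channel also set the rank window. The average level is thus not separate from the choice of members, and the p-values below carry no independent support for the pattern. Between the 2 tolerant lines, 5 of 39 members differed, against 8.8% of all 1000 probes. Probe a116pe0157 averaged 8.59 ± 0.16 in RIL60 and 9.54 ± 0.21 in RIL78 (SD, n = 4 arrays each), so that the lines differed by -0.94 (SE 0.23, limma's adjusted p = 0.0145). Its arrays did not overlap between these lines, at 8.43 to 8.80 in RIL60 and 9.38 to 9.84 in RIL78. Probe a116pe0798 averaged 8.69 ± 0.14 in RIL60 and 9.78 ± 0.66 in RIL78 and thus differed by -1.09 (SE 0.27, limma's adjusted p = 0.0157). Low signal limits these differences. In RIL60 the stress signal of a116pe0157, a116pe0798 and a116pe0746 exceeded background on 2 of 4 arrays each. Their well watered signal did so on 0, 1 and 1 in the same order.

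Probes a116pe0765 and a116pe0746 were also lower in RIL60, with differences of -0.97 (SE 0.27, limma's adjusted p = 0.0295) and -0.99 (SE 0.28, limma's adjusted p = 0.0371). For both, the wider gap between these lines lay in the well watered channel, which also enters their RIL78 ratios. Means of a116pe0765 were 9.18 in RIL60 against 11.12 in RIL78 well watered, and 9.15 against 9.17 under stress. Those of a116pe0746 were 9.14 against 11.59 well watered, and 8.97 against 8.49 under stress. In average level, the arrays of the lines overlapped for a116pe0746, at 8.61 to 9.97 in RIL60 and 9.69 to 10.39 in RIL78. The opposite direction was taken by a116pe0191, which averaged 10.99 ± 0.40 in RIL60 and 9.80 ± 0.39 in RIL78 and thus differed by 1.19 (SE 0.30, limma's adjusted p = 0.0180). Its level was higher in RIL60 in both treatments, at 10.72 against 9.80 under stress and 11.26 against 9.80 well watered. Without replicate 1 of RIL78 none of the 5 passed, without replicate 4 of RIL60 only a116pe0798 did, and within the scan day that both lines share only a116pe0157 and a116pe0191 did. Without background correction the differences were smaller by more than 1.5 times, at -0.35 for a116pe0157, for example.

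**Figure D5:**
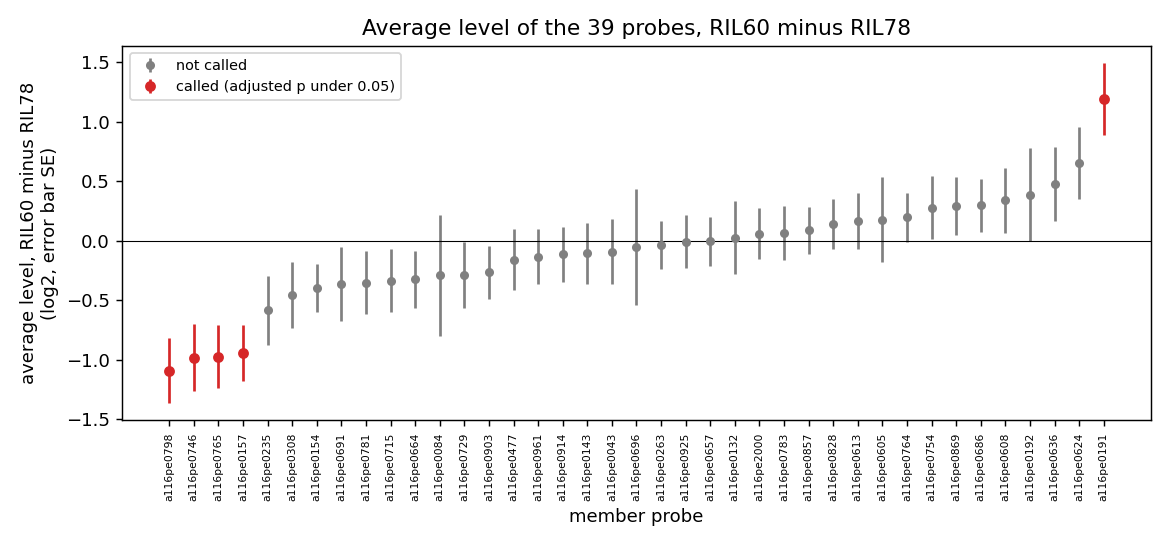
Average level over both treatments, RIL60 minus RIL78 (log2), for the 39 probes in order of size, with error bars of 1 SE from the fit; red points passed the adjusted threshold of 0.05. The red points are a116pe0798, a116pe0746, a116pe0765 and a116pe0157 below 0 and a116pe0191 above 0.

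No member was called between the susceptible lines, between the classes or for the dye in these fits. Between the susceptible lines, RIL66 minus RIL68, limma called 0 of 39 members against 5.3% of all probes, with 4 members and 186 of all probes at an unadjusted p under 0.05. The nearest was a116pe0608, named after its values were seen, at 8.82 ± 0.27 in RIL66 and 9.58 ± 0.41 in RIL68 (limma's adjusted p = 0.118). For the tolerant minus the susceptible lines, on 1 mean per line, limma called 0 members and 0 of all probes (0%), with 2 members and 41 of all probes at an unadjusted p under 0.05. In the fit to the 16 arrays, which takes only the spread between hybridisations as error, limma called 2 of 39 members against 4.4% of all probes, a share near the background. They were a116pe0746 and a116pe0764, the second named after its values were seen. The median difference of the members was -0.01, as it was over all probes. The dye effect, Cy5 over Cy3, was called for 0 members by limma against 10.9% of all probes, with 9 members and 279 of all probes at an unadjusted p under 0.05. The nearest was a116pe0798 at 0.19 (SE 0.07, limma's adjusted p = 0.0708).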

How the data were processed

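The scanner files that the authors deposited list, per the file headers, an intensity on a linear scale and the background around the spot, both uncorrected, for either dye. The authors' deposited table of log2 ratios was made by steps not given in the sources used here. It has no probe names, and its rows were matched to spots by array row of blocks and sorted probe name, which gave correlations of 0.882 to 0.992 with loess ratios. That match sets its direction at stress over well watered and its medians at -0.000722 to 0.00144, while its scale stays unknown.

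Spots marked by the authors and control spots were left out and the 2 spots of a probe averaged. For tests, limma 3.58.1 in R 4.3.3 applied normexp (offset 50), loess within arrays and Aquantile between arrays, then lmFit and eBayes over all 1000 probes with Benjamini-Hochberg adjustment at 0.05. The model held 1 coefficient for each line plus a term for the dye, and class differences used 1 mean per line. Dyes in the headers matched the labels on all 16 arrays. The number of arrays limits the precision. On simulated data of 1000 probes, a change of 1 in average level, RIL60 minus RIL78, was recovered for 65% of changed probes and one of 0.5 for 13%. The shares were 100% and 67% for the RIL78 ratio, and 100% and 97% for the dye effect. The simulated noise was independent between probes and arrays, with no effect of scan day, and the share of changed probes was set beforehand. These shares therefore need not hold for the real data.

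Members and named probes were chosen with earlier results of these data known. Named probes are those with the largest smallest line mean, class difference or number of arrays of the chosen sign, the brightest and dimmest members, those at the edges of the rule and those called in a test. Alternatives covered background, normalisation, filters, blocks, the deposited ratios and each array left out. Figures used matplotlib 3.10.9.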

Additional observations from a re-analysis of the deposited data

Results flagged for a closer look

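Among the 22 named members, the 4 arrays of each line were searched for 1 array far from the other 3 (Dixon's criterion), which chance meets in about 1 in 20 groups. It was met in 4 of 88 groups. Probe a116pe0084 had a ratio of -3.25 on replicate 4 of RIL60, with the others at -0.07 to 0.36. Probe a116pe0729 had -0.33 on replicate 2 of RIL60, with the others at 0.02 to 0.07. Probe a116pe0043 had -0.30 on replicate 3 of RIL60, with the others at -0.16 to -0.14, and -0.32 on replicate 1 of RIL68, with the others at 0.08 to 0.16.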

How the results depend on the processing

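Of the 39 members, 16 were chosen again with normexp and loess in place of the array median, 16 with the deposited ratios, 23 with normexp and the array median, and 19 from the lower spot of each probe alone. The last was chosen after seeing the data, as was asking for the signs in loess and deposited ratios together, which kept 12. A size of at least 0.1 in every line kept 1 member, a size of at least 0.2 kept 0, and turning the sign of RIL66 kept 0 by construction. Between 26 and 39 were kept when 1 array was left out, the fewest without replicate 2 of RIL60 or replicate 4 of RIL68, and 6 members kept all 4 signs in every such case. Floors of 20 and 200 kept all 39.

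Members called by limma for the average level, RIL60 minus RIL78, numbered 5, with 2 of the 12 members left by a filter on dim probes, 2 within the shared scan day (added after seeing the headers) and 0 to 5 with 1 array left out. For tolerant minus susceptible levels they numbered 0, but 2 with a replicate block, 4 with scan day as a random block and 2 with line coefficients over the 16 arrays, and for the ratios 0, but 2 in each of these 3 fits. With 1 array left out, RIL66 minus RIL68 called 0 to 1, the dye effect 0 to 2, and the ratio 0 to 1 in RIL60, 2 to 6 in RIL78 and 0 to 2 in RIL66. The dye effect called 1 with the deposited ratios. Of the 12 members left by the dim filter, the ratio called 0 in RIL60, 1 in RIL78 and 0 in RIL66. Of all 39 members, it called 0 in RIL60 with the replicate block, the day block or the array median. The causes were not tested.

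Over all probes the counts ran, outside the fits with 1 array left out, from 59 to 96 for RIL60 minus RIL78 (88 as reported), 0 to 65 for RIL66 minus RIL68 (53), 0 to 70 for tolerant minus susceptible levels (0), 0 to 175 for the dye effect (109), and for the ratio 19 to 60 in RIL60 (29), 43 to 121 in RIL78 (75), 26 to 68 in RIL66 (26), 3 to 15 in RIL68 (7) and 0 to 18 for tolerant minus susceptible (0). These counts take calls in both directions, whereas the shares given earlier for the ratio take only the direction of the rule. Same-numbered arrays of different lines had correlations of deviations from -0.41 to 0.55, all above 0 only for replicate 4 (0.06 to 0.42). The dye effect was not removed, and RIL66 had the reverse dye order of the other lines. The correlations therefore cannot decide whether the numbers pair the arrays. With the replicate block 4 members were called for RIL60 minus RIL78, without a116pe0746, and 0 probes for the dye effect, since replicate number and dye nearly coincide. Low signal over background limits what can be read from most members.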
